A study of Rattus norvegicus with 14 samples.

Results

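The genes described here encode the nuclear-encoded subunits and assembly partners of the mitochondrial respiratory chain and ATP synthase in rat liver. Members were all genes whose platform symbol begins with Nduf, Uqcr or Atp5, is Cox4 to Cox8 with any ending, or is one of Sdha to Sdhd or Cycs. Only probe sets with a single symbol counted, and the probe set with the highest mean intensity stood for each gene. The rule found 54 genes, read by 100 of the 8740 probe sets that are not controls, out of 4736 genes with a single symbol. Of these genes 27 carry names of complex I, 1 of complex II, 3 of complex III, 13 of complex IV and 10 of complex V. Cycs was read only by a probe set that lists several symbols, so it was not analysed here, nor were the other probe sets of that kind (7 in all).

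The study compared livers of male rats, 74 days old, that had eaten a special diet for 53 days, either vitamin A-sufficient or vitamin A-deficient. Each diet has 7 arrays. They come from samples numbered 1 to 4, all of them hybridised from about 10 µg of total RNA, and from samples 1, 2 and 4 hybridised again from about 2 µg. The labels do not say whether arrays of the same diet and number came from the same liver. Such arrays were therefore averaged to 1 value per number (n = 4 per diet). Every p-value for diet rests on the spread among those 8 values, which may be technical, and on variance limma borrows from other probe sets. Tests of RNA amount and of its interaction with diet used the 14 arrays as separate samples. The labels name neither a strain nor what each diet contained.

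Complex I takes electrons from NADH and complex II takes them from succinate, and both pass them to ubiquinone. Complex III hands them on to cytochrome c, complex IV reduces oxygen, and complex V uses the resulting proton gradient to make ATP. Liver holds many mitochondria, and nuclear genes for most subunits are known to depend on general activators such as NRF1 and the ETS factor GABPA. Retinoic acid, made from vitamin A, acts through nuclear receptors that bind direct repeats of a short motif.

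Promoter stretches are shown because they carry the sites by which these genes are usually discussed, and because the diet acts on a vitamin with its own DNA-binding receptors. RefSeq promoters on GRCr8, from 250 bases before to 50 after each gene's start, were matched by gene for 46 of the 54 members. The NRF1 letters, GCGCA and GCGC with any 1 base between, read like all motifs here on both strands, were found in 6 of 46 members (13.0%), against 4.82% of 27457 genes. The ETS letters CCGGAAG were found in 9 of 46 (19.6%), against 9.63% of all genes. The YY1 letters AAGATGGCG were found in 7 of 46 (15.2%), against 1.99% of all genes. Direct repeats of AGGTCA or AGTTCA with 1, 2 or 5 bases between the repeats were found in 0 of 46 members, against 0.113%, 0.0510% and 0.0364% of all genes, and this says only that those letters are not in these windows. In all, 19 members held letters of NRF1, ETS or YY1, and 0 held those of both NRF1 and ETS. In the examples, read 5′ to 3′ along the gene, capitals mark the NRF1 letters in Ndufs6, Ndufv3, Sdha and Atp5po and the ETS letters in Uqcrc2 and Cox8a, on either strand. They lie at chr1:31797354-31797399 (plus strand) for Ndufs6, chr20:9613727-9613776 (plus) for Ndufv3, chr1:30764487-30764536 (plus) for Sdha, chr1:184599192-184599238 (plus) for Uqcrc2, chr1:213833654-213833700 (minus) for Cox8a and chr11:44657513-44657562 (minus) for Atp5po.
Ndufs6: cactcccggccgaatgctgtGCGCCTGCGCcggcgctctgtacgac
Ndufv3: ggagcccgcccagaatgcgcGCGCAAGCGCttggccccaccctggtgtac
Sdha: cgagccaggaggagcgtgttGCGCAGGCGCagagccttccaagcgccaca
Uqcrc2: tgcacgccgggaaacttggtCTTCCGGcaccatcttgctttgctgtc
Cox8a: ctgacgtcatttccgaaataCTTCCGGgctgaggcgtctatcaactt
Atp5po: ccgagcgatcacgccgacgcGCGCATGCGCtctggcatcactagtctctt
A match of letters is a description and not a bound site. The 54 members lie on 17 chromosomes, with at most 12 on 1 chromosome.

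The first comparison asked whether these genes differ between the livers of deficient and sufficient rats. Levels are given on the log2 scale, after 16 was added to the scaled intensity, so that a dim gene shows less than its true fold. None of the 52 members bright enough to test passed in limma at an adjusted p of 0.05 (0 of 52, against 1.72% of all tested probe sets, 0.725% higher and 0.992% lower in deficient livers). The unadjusted p was under 0.05 for 0 of 52 members, against 14.5% of tested probe sets (at most 2 members under any alternative run), and the smallest unadjusted p was 0.0614. The 4 values of one diet lay entirely above or below those of the other for 0 of 52 members, against 8.91% of tested probe sets. Differences, deficient minus sufficient, ran from -0.43 for Ndufb1 to 0.22 for Cox4i2, with a median of 0.06 against 0.04 over all tested probe sets. The deficient mean was above the sufficient mean for 30 members and below it for 22, and 58.4% of all tested probe sets had a positive difference. The sign of the median rests on the scaling: with arrays set to a common median it was -0.01, with 22 of 52 positive, while the median over all tested probe sets moved to -0.02.

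The members' differences were small in size. Their median size was 0.0841 on the log2 scale, against 0.157 over all tested probe sets, and the median standard error was 0.130 against 0.171. The 95% interval of the difference stayed inside 1.5-fold either way for 49 of 52 members (94.2%), against 53.9% of tested probe sets, and inside 2-fold for 52 of 52, against 87.7%. These shares were not matched for brightness. A filter at the 60th percentile kept 50 of the 52 members but 3496 of the 5244 tested probe sets. The limma fit used a trend, in which the variance borrowed from other probe sets depends on the mean level. The part of brightness in the narrower intervals was not tested. The 3 members whose interval reached past 1.5-fold were Ndufb1, Ndufb3 and Ndufb6, all accessory subunits of complex I.

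**Figure D1:**
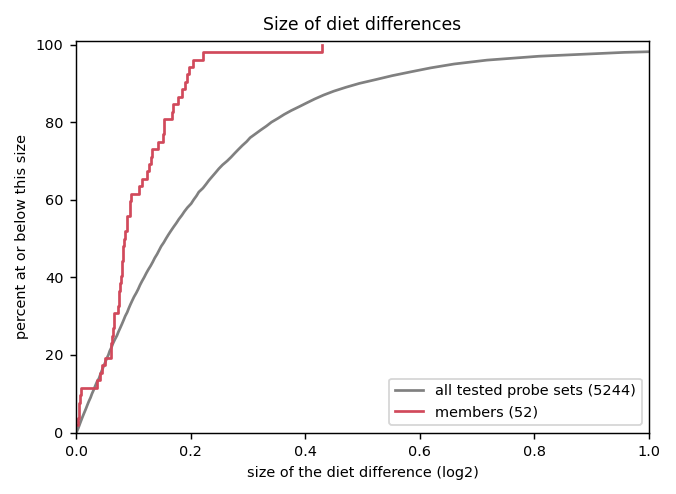
Size of the diet difference (log2, horizontal axis) against the percent of features at or below that size (vertical axis), for the 52 tested members and for all tested probe sets. The members' curve reaches its top at 0.43, the size of the Ndufb1 difference, and its median is 0.0841 against 0.157 for all tested probe sets.

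**Figure D2:**
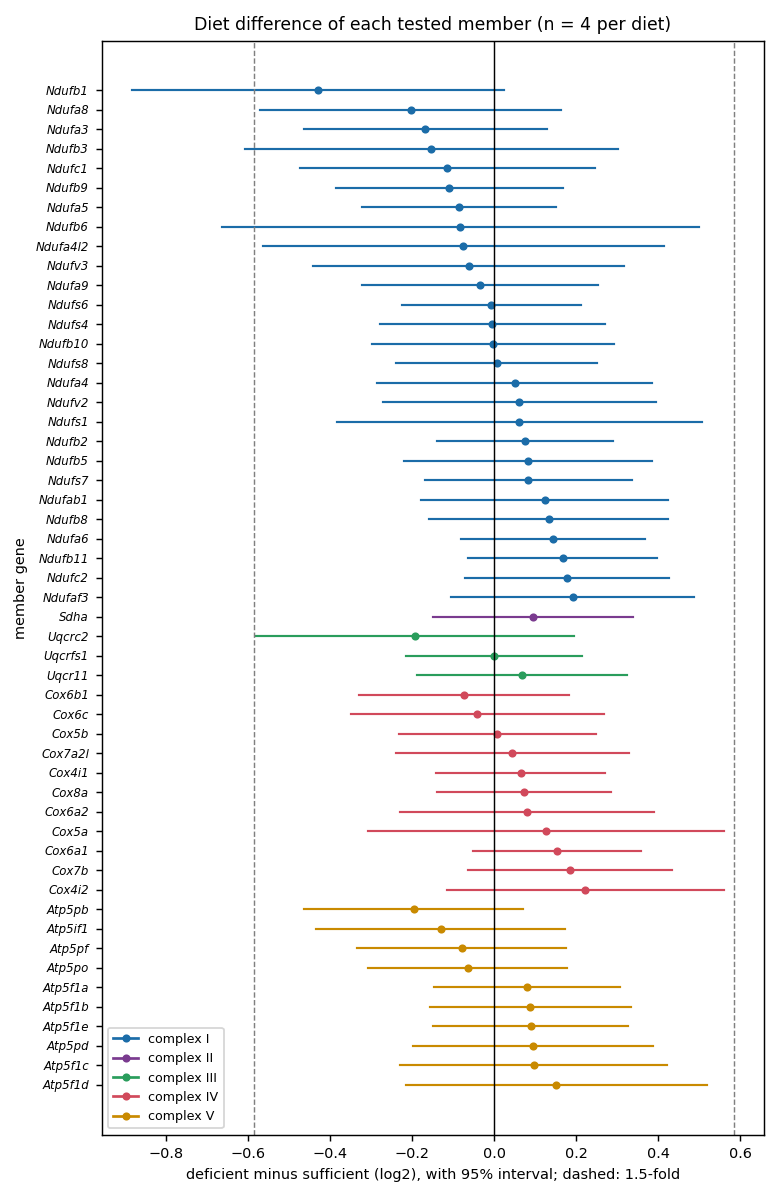
Difference in log2 level, deficient minus sufficient (n = 4 per diet), for each tested member, with its 95% interval from limma. Points are coloured by complex, dashed lines mark 1.5-fold, and the interval of every one of the 52 members includes 0.

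In complex I, the deficient mean was higher for 13 of 27 members and lower for 14, with a median difference of -0.00. With arrays set to a common median it was higher for 9, and with quantile normalization for 14. Ndufb1, a small accessory subunit of the membrane arm, had the smallest p of all members. Its level was 9.61, 10.18, 10.13 and 9.33 in sufficient samples 1 to 4 and 9.27, 9.33, 9.17 and 9.77 in deficient samples 1 to 4. Sufficient 2 and 3 stood above all the others, while sufficient 1 and 4 lay among the deficient values, so the groups overlapped. The difference was -0.43 (SE 0.21, 95% interval -0.88 to 0.02, limma adjusted p = 0.378). Ndufb11, another membrane-arm subunit, had the second smallest p of the complex, at 10.62, 10.65, 10.62 and 10.76 in sufficient and 10.72, 10.80, 10.80 and 11.00 in deficient samples. Only sufficient 4 lay above the lowest deficient value, and the difference was 0.17 (SE 0.10, adjusted p = 0.540). Ndufaf3, an assembly factor of the complex rather than a subunit, showed its largest positive difference. It was at 8.59, 8.81, 8.74 and 9.13 in sufficient and 9.08, 8.97, 9.05 and 8.93 in deficient samples, a difference of 0.19 (SE 0.13, adjusted p = 0.589). Sufficient 4 was the highest of the 8 values there, and the other 3 sufficient values lay below all deficient ones. The other tested probe sets of Ndufaf3, both dimmer, gave 0.01 (SE 0.15) and 0.08 (SE 0.18).

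Spread between samples of 1 diet was wide for a few accessory subunits. Ndufb6 was at 9.78, 9.80, 10.01 and 10.71 in sufficient and 10.69, 9.63, 9.60 and 10.06 in deficient samples. Here 1 sample of each diet stood well above the rest, and the difference of -0.08 had the largest standard error of all members (0.26). The other tested probe set of Ndufb6 lacked these high values, with 10.12 in sufficient 4 and 9.82 in deficient 1, and gave -0.08 (SE 0.11). Ndufb3 was at 11.16, 10.89, 10.93 and 10.30 in sufficient and 10.30, 10.48, 10.82 and 11.06 in deficient samples, covering nearly the same range in both diets, with a difference of -0.15 (95% interval -0.61 to 0.30). Among the core subunits that carry iron-sulfur clusters, Ndufs1 differed by 0.06 (SE 0.20), Ndufs7 by 0.08 (SE 0.11), Ndufs8 by 0.01 (SE 0.11) and Ndufv2 by 0.06 (SE 0.15). Ndufab1, the mitochondrial acyl carrier protein, differed by 0.12 (SE 0.14). Its other tested probe set gave 0.10 (SE 0.22). The Ndufab1 probe set too dim to test gave -0.78, at 5.30 to 6.12 in sufficient and 4.52 to 5.13 in deficient samples. Ndufa4, which is named for complex I but is now counted with cytochrome c oxidase, differed by 0.05 (SE 0.15), and its paralog Ndufa4l2 by -0.08 (SE 0.22). The other tested probe sets of Ndufa4l2 gave -0.40 (SE 0.22) and -0.15 (SE 0.30), and its probe sets too dim to test -0.38 and -0.33.

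For complex II only Sdha was measured, the flavoprotein that oxidises succinate. Its level was 10.95, 10.91, 10.76 and 10.70 in sufficient and 10.97, 11.07, 10.83 and 10.82 in deficient samples. The groups overlapped, and the difference was 0.09 (SE 0.11, 95% interval -0.15 to 0.34, limma adjusted p = 0.796).

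In complex III the deficient mean was higher for 1 and lower for 2 of 3 members, against 0 of 3 higher with arrays set to a common median and 2 of 3 with quantile normalization. Uqcrc2, a core protein on the matrix side, was at 10.61, 10.00, 10.60 and 10.07 in sufficient and 10.31, 10.26, 9.80 and 10.12 in deficient samples. Sufficient samples 1 and 3 were the highest of all, samples 2 and 4 fell among the deficient values, and the difference was -0.19 (SE 0.18, adjusted p = 0.698). With the arrays from 10 µg alone that difference was 0.0076. Uqcr11, a small subunit of the complex, was at 12.21, 12.27, 12.16 and 12.53 in sufficient and 12.41, 12.39, 12.14 and 12.49 in deficient samples, a difference of 0.07 (SE 0.12). The Rieske iron-sulfur protein Uqcrfs1 was at 12.59, 12.57, 12.81 and 12.72 in sufficient and 12.54, 12.72, 12.68 and 12.75 in deficient samples. Both diets covered the same range, and the difference was -0.00 (95% interval -0.21 to 0.21).

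In complex IV, 11 of 13 members were bright enough to test, and the deficient mean was higher for 9 of them and lower for 2, with a median difference of 0.07. With arrays set to a common median it was higher for 6, with a median of 0.00, and with quantile normalization for 8. Cox6a1, the subunit form of liver and most other tissues, was at 12.90, 13.10, 12.95 and 12.98 in sufficient and 13.03, 13.09, 13.13 and 13.28 in deficient samples. Sufficient 2 alone overlapped the deficient values, and the difference was 0.15 (SE 0.09, limma adjusted p = 0.516). Cox7b, a small structural subunit, was at 11.70, 11.60, 11.81 and 11.41 in sufficient and 11.88, 11.77, 11.69 and 11.91 in deficient samples. The groups overlapped through sufficient 1 and 3 and deficient 2 and 3, and the difference was 0.18 (SE 0.11, adjusted p = 0.521). Cox6b1, which faces the intermembrane space, had the lowest difference of the complex. It was at 11.93, 12.01, 11.93 and 11.62 in sufficient and 11.62, 11.83, 11.83 and 11.91 in deficient samples, with a difference of -0.07 (SE 0.12).

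Complex IV contains subunits with tissue forms, and both forms of 3 of them were on the array. The ubiquitous Cox4i1 was at 14.16, 14.26, 14.12 and 14.08 in sufficient and 14.10, 14.24, 14.13 and 14.41 in deficient samples, a difference of 0.06 (SE 0.09). Cox4i2, known from lung and from low oxygen, was at 9.61, 10.06, 9.59 and 10.01 in sufficient and 10.29, 9.99, 10.08 and 9.80 in deficient samples. Its difference of 0.22 (SE 0.15, 95% interval -0.12 to 0.56, adjusted p = 0.581) was the largest positive value among the members, and the groups overlapped. Cox6a2, the form of heart and skeletal muscle, was at 8.58, 8.43, 8.91 and 8.62 in sufficient and 8.89, 8.66, 8.52 and 8.79 in deficient samples, a difference of 0.08 (SE 0.14). The other 2 probe sets of Cox6a2 were too dim to test, with sufficient means of 6.25 and 4.57. The brighter of these was at 5.87, 5.91, 7.25 and 5.95 in sufficient and 6.54, 5.99, 5.70 and 5.93 in deficient samples. The widely expressed Cox8a was at 13.67, 13.81, 13.78 and 13.76 in sufficient and 13.71, 13.78, 13.78 and 14.06 in deficient samples, a difference of 0.07 (SE 0.10). Its muscle counterpart Cox8b was too dim to test, at 5.58, 5.75, 7.08 and 5.68 in sufficient and 6.21, 5.57, 5.80 and 6.26 in deficient samples. The single high value there was sufficient 3, which has a 10 µg array only. Sufficient 3 was also the highest sample in the Cox6a2 probe set with a sufficient mean of 6.25, but not in the dimmest one. The other dim member was Cox6c-ps1, a transcribed pseudogene, which lay between 4.43 and 5.91 in the 8 samples. Of 14 striated muscle markers measured only 3 were bright enough to test and 0 passed. Of these 3, 1 had a positive and 2 a negative difference, from -0.77 to 0.08. The unadjusted p in limma was under 0.05 for 1 of them, against 14.5% of all tested probe sets. The list's summed level was 6.33 to 7.67 in sufficient and 6.17 to 7.23 in deficient samples. The largest SD of a measured muscle marker within 1 diet was 2.59.

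In complex V the deficient mean was higher for 6 of 10 members and lower for 4, with a median difference of 0.08. In the catalytic head and central stalk all differences were positive, also with arrays set to a common median, where they ran from 0.01 to 0.08, and with quantile normalization. Without sufficient 2 Atp5f1c was at -0.05, and over all settings that left out 1 sample the lowest values of Atp5f1b and Atp5f1d were 0.00 and 0.01. They were 0.08 for Atp5f1a (SE 0.10), 0.09 for Atp5f1b (SE 0.11), 0.10 for Atp5f1c (SE 0.15), 0.15 for Atp5f1d (SE 0.17) and 0.09 for Atp5f1e (SE 0.11), and none passed in limma. Atp5f1d, with the largest of these, was at 10.77, 10.26, 10.59 and 11.04 in sufficient and 10.57, 10.80, 10.87 and 11.02 in deficient samples, so both diets covered much the same range. In the peripheral stalk, Atp5pd differed by 0.09 (SE 0.13), Atp5pf by -0.08 (SE 0.12) and Atp5po by -0.07 (SE 0.11). Atp5pb, the long stalk subunit, had the lowest difference of the complex. It was at 11.21, 11.28, 11.47 and 11.27 in sufficient and 11.35, 11.04, 11.16 and 10.89 in deficient samples. Deficient 1 lay among the sufficient values and the other 3 deficient values lay below them, and the difference was -0.20 (SE 0.12, adjusted p = 0.526). The low deficient 4 averaged arrays at 11.37 (10 µg) and 10.20 (2 µg). Without that sample the difference was -0.12, and with 10 µg arrays alone it was -0.06. Atp5if1, the inhibitor that stops the enzyme from running backwards, was at 8.78, 8.35, 8.41 and 8.73 in sufficient and 8.33, 8.42, 8.60 and 8.41 in deficient samples, a difference of -0.13 (SE 0.14, adjusted p = 0.757).

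Several genes were read more than once. For 28 members the array has more than 1 probe set, and for 25 of them more than 1 was bright enough to test. The 35 tested probe sets beyond the brightest ones gave 0 calls. Only a second probe set of Cox6c, a small subunit of complex IV, had an unadjusted p under 0.05 (0.0302). It was at 8.16, 8.42, 7.94 and 8.71 in sufficient and 7.62, 8.25, 6.94 and 7.84 in deficient samples, a difference of -0.64 (SE 0.26, adjusted p = 0.281). The brightest Cox6c probe set gave -0.04 (SE 0.14). For 11 members the tested probe sets differed in sign, so their direction is not settled by these arrays. Atp5if1 read -0.13, -0.15 and 0.44 in its 3 tested probe sets, Uqcr11 0.07 and -0.17, Cox6b1 -0.07 and 0.09, Ndufa6 0.14 and -0.12, and Ndufv3 -0.06 and 0.04. The brightest probe set of Ndufa6 was at 11.37, 11.27, 11.38 and 11.32 in sufficient and 11.59, 11.44, 11.31 and 11.57 in deficient samples, where only deficient 3 fell among the sufficient values. Ndufv3, an accessory subunit of the NADH-oxidising part, was at 11.51, 11.69, 10.87 and 11.72 in sufficient and 11.37, 11.45, 11.41 and 11.30 in deficient samples, and the low sufficient 3 made the sufficient range the wider one. Ndufs4 was at 9.38, 9.31, 9.53 and 9.45 in sufficient and 9.40, 9.19, 9.43 and 9.63 in deficient samples. In Ndufs8 the values were 11.14, 11.23, 11.25 and 11.29 in sufficient and 11.15, 11.07, 11.25 and 11.46 in deficient samples, and in Cox5b they were 12.22, 12.15, 12.12 and 12.31 against 12.25, 12.21, 11.98 and 12.39. In these 3 genes the deficient values spanned the sufficient ones, and differences of the brightest probe set were -0.01, 0.01 and 0.01. Cox4i1, Cox8a and Uqcrfs1 are the remaining ones that differed in sign.

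The sample labelled deficient 4 stood apart from the other 7 in these genes. Its level was above the mean of the 8 samples for 39 of 52 members, with a median deviation of 0.16, while the medians of the other 7 samples ran from -0.05 to 0.02. Over all tested probe sets the median deviation of deficient 4 was 0.03. In complex IV 10 of 11 members were above their mean in that sample. In complex V 8 of 10 were, as in sufficient 1 and in sufficient 4. Without it the members' median diet difference was -0.00, with 24 of 52 positive, in place of 0.06 with 30 positive.

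**Figure D3:**
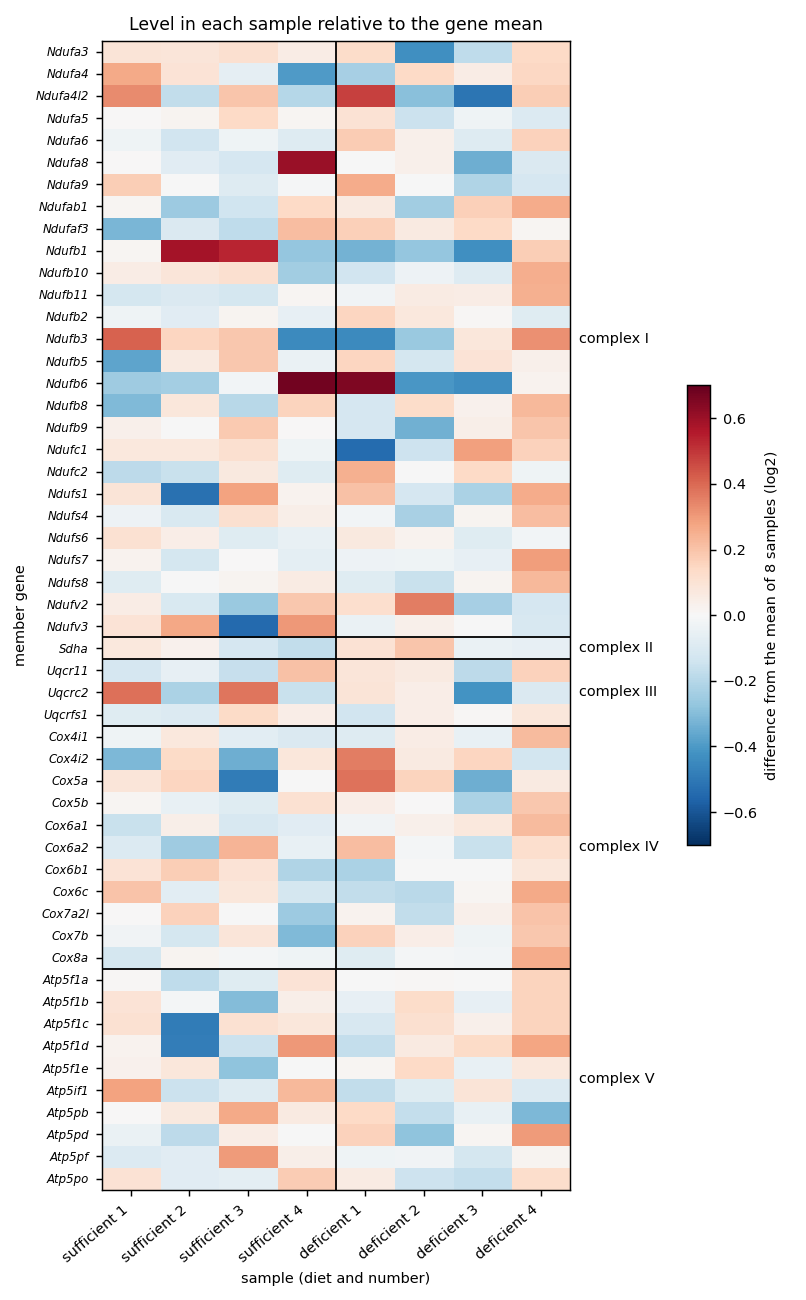
Log2 level of each tested member (rows, grouped by complex) in each of the 8 averaged samples (columns, sufficient 1 to 4 and deficient 1 to 4), as the difference from that gene's mean over the 8 samples. Red is above and blue below the mean, and the last column, deficient 4, is above it for 39 of 52 members.

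Other mitochondrial genes were read for context, from lists written with earlier results of these data known, and 0 of their members passed in limma, whereas 1.72% of all tested probe sets did. The mitochondrial genome was represented by COX1, COX2 and COX3, the core subunits of complex IV, with differences of 0.22 (SE 0.09), 0.06 (SE 0.13) and 0.16 (SE 0.10). COX1 was at 14.51, 14.61, 14.56 and 14.70 in sufficient and 14.93, 14.88, 14.82 and 14.63 in deficient samples, and only deficient 4 overlapped the sufficient values (adjusted p = 0.286). Among 15 tested genes of the citric acid cycle and pyruvate dehydrogenase the median difference was 0.11. Differences ran from -1.10 to 0.55, with 9 positive and 6 negative. The unadjusted p in limma was under 0.05 for 3 of them, against 14.5% of all tested probe sets. The smallest p belonged to Idh2, the mitochondrial NADP-dependent isocitrate dehydrogenase. Idh2 was at 10.94, 10.81, 10.87 and 10.97 in sufficient and 11.38, 11.33, 11.25 and 11.83 in deficient samples, without overlap, a difference of 0.55 (SE 0.13, adjusted p = 0.0734). Electron entry and assembly genes outside the rule had a median of -0.06 over 11 tested, with the smallest p for Aifm1, a flavoprotein that takes part in respiratory chain assembly. Aifm1 was at 9.48, 9.53, 9.57 and 9.59 in sufficient and 9.16, 9.39, 9.37 and 9.17 in deficient samples, without overlap, a difference of -0.27 (SE 0.11, adjusted p = 0.292). The carriers had a median of 0.05 over 12 tested, with the smallest p for the adenylate kinase Ak3. It was at 9.26, 9.16, 9.67 and 9.76 in sufficient and 9.71, 9.63, 10.04 and 10.28 in deficient samples, and the groups overlapped at a difference of 0.45 (SE 0.18, adjusted p = 0.288). Regulators of mitochondrial biogenesis had a median of 0.08 over 8 tested. Polg2, the accessory subunit of the mitochondrial DNA polymerase, was at 6.44, 7.48, 6.77 and 7.49 in sufficient and 7.63, 8.64, 7.75 and 7.67 in deficient samples, without overlap, a difference of 0.88 (SE 0.29, adjusted p = 0.181). The retinoid receptors Rxra and Rara differed by 0.00 and 0.23. Import and chaperone genes had a median of 0.03 over 13 tested, with the smallest p for the chaperone Hspa9. It was at 10.06, 9.09, 9.59 and 9.26 in sufficient and 8.85, 9.15, 8.75 and 8.81 in deficient samples, with only deficient 2 among the sufficient values, a difference of -0.61 (SE 0.20, adjusted p = 0.174).

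Defining hepatocyte genes were bright in every sample, with Alb at 15.13 to 15.48 in sufficient and 15.38 to 15.64 in deficient samples, and 0 of 8 tested hepatocyte markers passed. All 8 had a positive difference (median 0.21), against 58.4% of all tested probe sets. Of the 8, 4 had an unadjusted limma p under 0.05, beside 14.5% of all tested probe sets. The list's summed level (log2 of its mean scaled intensity plus 16) was 13.94 to 14.27 in sufficient and 14.21 to 14.43 in deficient samples. Some markers of other cells passed, beside 0.725% of all tested probe sets higher and 0.992% lower. Of 6 tested erythroid markers 4 fell, with a summed level of 11.01 to 11.32 in sufficient and 9.36 to 10.11 in deficient samples. Among 6 macrophage markers 1 rose, Lgals3, and the summed level was 10.01 to 10.12 against 10.32 to 10.72. Among 7 stellate cell markers 1 rose, Vim, while 5 had a negative difference, and the summed level was 8.21 to 8.65 against 8.33 to 8.53. Among 4 endothelial markers 1 fell, Lyve1, and the summed level was 8.57 to 8.75 against 8.35 to 8.70. None of the 3 cholangiocyte markers passed, at a summed level of 6.73 to 6.89 against 7.11 to 7.43, nor did any of 3 lymphocyte markers or the 1 brown fat marker tested. In bulk liver, fewer cells of a type and less RNA per cell cannot be told apart. The part of these cells in the members' levels was not tested.

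The second comparison asked whether the amount of RNA used for the array moves these genes. No member passed between about 2 and about 10 µg in limma (0 of 52, against 0% of tested probe sets). The unadjusted p was under 0.05 for 8 members, against 6.62% of tested probe sets. All 8 were higher at 2 µg, and 2.44% of all tested probe sets were so in that direction. Without deficient 2 the unadjusted count was 4, of which 3 were higher. The value at 2 µg was the higher one for 38 of 52 members, against 47.4% of all tested probe sets, and the median difference, 2 µg minus 10 µg, was 0.09 against -0.01. By complex it was higher for 19 of 27 in complex I, 0 of 1 in complex II, 2 of 3 in complex III, 10 of 11 in complex IV and 7 of 10 in complex V. With arrays set to a common median the count was 41 of 52, and with quantile normalization 38.

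Arrays of the same diet and number could be set against each other in 6 pairs. With diet and number as a block, 0 members passed, against 0.0381% of tested probe sets, and the smallest adjusted p among members was 0.0860 for Cox6b1. Under the block the unadjusted p was under 0.05 and the value higher at 2 µg for 14 members, against 5.17% of tested probe sets. The 2 µg array was higher in all 6 pairs for 9 of 52 members, against 3.3% of tested probe sets: Ndufb5, Ndufb8, Ndufb10, Ndufc1, Ndufs7 and Ndufs8 of complex I, Cox6a1 and Cox6b1 of complex IV and Atp5f1e of complex V. It was lower in all 6 pairs for 1, Atp5f1a, against 4.31%. For Cox6b1 the 2 µg array exceeded its 10 µg partner by 0.30, 0.25 and 0.47 in sufficient 1, 2 and 4 and by 0.38, 0.37 and 0.17 in deficient 1, 2 and 4. In the fit without the block the Cox6b1 difference was 0.31 (SE 0.09, adjusted p = 0.532). Atp5f1e differed by 0.23 (SE 0.08), Ndufb8 by 0.27 (SE 0.11) and Ndufb5 by 0.25 (SE 0.11). Sdha went the other way, at -0.18 (SE 0.09), and was lower at 2 µg in 5 of 6 pairs. The Atp5pb difference of -0.25 (SE 0.14) rested on the pair of deficient 4, at -1.18, while its other pairs lay between -0.17 and 0.13. The median over the 52 members was 0.09, 0.12 and 0.09 in the 3 sufficient pairs and 0.18, 0.03 and 0.00 in the deficient pairs of samples 1, 2 and 4, so the shift was near 0 in deficient 4.

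**Figure D4:**
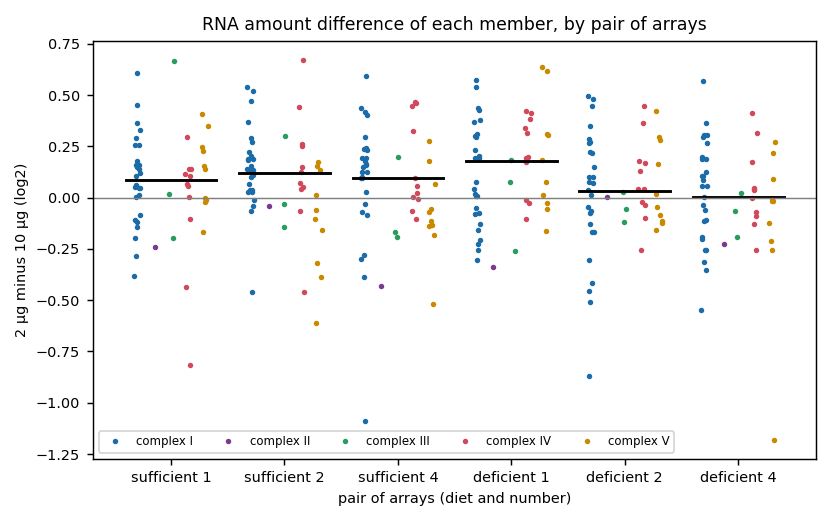
Log2 level at about 2 µg minus about 10 µg of RNA for each tested member (points, coloured by complex) in each of the 6 pairs of arrays of the same diet and number, with the median over 52 members as a black bar. The medians run from 0.00 in deficient 4 to 0.18 in deficient 1, and the lowest point of the last pair is Atp5pb at -1.18.

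The log2 ratio of 3′ to 5′ control probe sets, a sign of how complete the labelled RNA is, was read beside this. For GAPDH it was 0.777 ± 0.231 (SD, n = 8) at 10 µg and 0.690 ± 0.120 (SD, n = 6) at 2 µg, and it was higher at 2 µg in 3 of 6 pairs. For beta-actin it was 0.554 ± 0.182 and 0.593 ± 0.141, higher at 2 µg in 4 of 6 pairs. By diet, with arrays of 1 number averaged, the GAPDH ratio was 0.732 ± 0.146 in sufficient and 0.794 ± 0.264 in deficient samples (SD, n = 4 each), and the ranges overlapped in each of these comparisons. Its part in the members' values was not tested.

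The last comparison was whether the diet difference depends on the amount of RNA. The interaction passed for 0 of 52 members in limma, against 0% of tested probe sets, and the unadjusted p was under 0.05 for 0 members, against 1.83% of tested probe sets. Uqcrc2 was the only tested member in which every sufficient pair went one way (0.66, 0.30 and 0.20 higher at 2 µg) and every deficient pair the other (-0.26, -0.12 and -0.07). Its interaction difference was -0.27 (SE 0.31), with an adjusted p of 1.00, and with the replicate block the unadjusted p was 0.00704 and the adjusted p 0.997. Under that block the unadjusted interaction p in limma was under 0.05 for 2 of 52 members, Uqcrc2 and Ndufb6 (0.0246), against 3.76% of tested probe sets. The share of all tested probe sets with pairs split by diet as in Uqcrc2 was not counted. Cox8b, too dim for the main test, went opposite ways by larger amounts in its brightest probe set. On the 10 µg arrays it was at 6.47, 6.28, 7.08 and 6.28 in sufficient samples 1 to 4 and 5.68, 4.68, 5.80 and 5.65 in deficient samples 1 to 4. On the 2 µg arrays it was at 4.93, 5.45 and 5.31 in sufficient and 6.97, 6.70 and 7.11 in deficient samples 1, 2 and 4. So in this probe set the sufficient arrays were all higher at 10 µg and the deficient arrays all higher at 2 µg. With no filter on dim probe sets its interaction difference was 2.77 (SE 0.44, limma adjusted p = 0.142), which did not pass. The other Cox8b probe set, dimmer still, lacked this split. Its pairs, 2 µg minus 10 µg, were -0.06, 0.25 and 0.04 in sufficient and -0.05, 0.55 and 0.01 in deficient samples 1, 2 and 4.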

How the data were processed

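Liver RNA of 14 samples was measured on Affymetrix rat arrays. The authors deposited 1 linear intensity per probe set and array. The program and its normalization: not given in the sources used here. Every array had a 2% trimmed mean of 1001.9 to 1002.1, so the deposited intensity had already been scaled. Depth does not apply to arrays; their number limits the precision.

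The 59 control probe sets were left out. Arrays were brought to a common trimmed mean of 500, and the log2 scale was used after adding 16. Probe sets with a mean under the 40th percentile (6.196) were not tested, which left 52 members. Platform annotation gave the symbols (7006 probe sets with 1 symbol, 308 with several, 1426 with none listed). All 54 members matched RefSeq by Entrez identifier and 0 symbols changed.

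For diet, the mean shift between RNA amounts over 6 pairs was removed and arrays of 1 diet and number were averaged. These 8 values entered lmFit and eBayes with a trend (limma 3.58.1, R 4.3.3), p-values being two-sided and Benjamini-Hochberg adjusted over all tested probe sets at 0.05. RNA amount (with diet) and the interaction used 14 arrays. Arrays of 1 diet and number at both amounts correlated in their deviations from the group means at 0.202 to 0.351, each best with its own number (6 of 6), against -0.254 to 0.124 for different numbers, so the block is given beside the amount results. This pairing comes from the shared number and the data, not from a statement in the labels.

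Named with values in every sample were, in each complex, the 2 members with the smallest p, those with the largest and smallest difference, members whose probe sets differ in sign and tissue forms; in other lists, the member with the smallest p. Other members, and Rxra and Rara, were named after their values were seen. Members and lists were chosen with earlier results of these data known. Alternatives were other scalings, pseudocounts of 1 and 64, other filters, no trend, the median of a gene's probe sets, other ways to combine the arrays, array weights, blocks and leaving out each numbered sample. The fits were tested on simulated data.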

Additional observations from a re-analysis of the deposited data

Results flagged for a closer look

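In 6 of 108 groups of 4 values (54 members in both diets) 1 sample lay farther from the rest than Dixon's 95% criterion allows, which chance gives in about 1 in 20 groups. Deficient 4 was high for Atp5f1a, at 11.42 against 11.26 to 11.27 in the other deficient samples, and for Ndufs7, at 10.83 against 10.48 to 10.51. Sufficient 2 was low for Atp5f1c, the central stalk subunit, at 10.44 against 11.01 to 11.04. Sufficient 3 was high for Ndufa5, at 9.97 against 9.83 to 9.85, and for the dim Cox8b, at 7.08 against 5.58 to 5.75. Sufficient 3 has no 2 µg array, and in the other 3 sufficient samples Cox8b read 0.83 to 1.54 less at 2 µg; on the 10 µg arrays alone they were at 6.28 to 6.47. Sufficient 4 was high for Ndufa8, at 11.37 against 10.65 to 10.77.

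Of the 52 sets of 6 pair differences between RNA amounts, 4 held such a value. They were -1.18 for Atp5pb in deficient 4 (others -0.17 to 0.13), 0.59 for Ndufb10 in sufficient 4 (others 0.12 to 0.26), 0.49 for Ndufc1 in deficient 2 (others 0.05 to 0.20) and -0.16 for Ndufs6 in deficient 1 (others 0.14 to 0.30). For Uqcrc2 the pairs of the diets moved in opposite directions, an interaction difference of -0.27 that did not pass (limma adjusted p = 1.00). For the brighter probe set of Cox8b they did so too, at 2.77 with no filter on dim probe sets, which also did not pass (limma adjusted p = 0.142). The other Cox8b probe set lacked this.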

How the results depend on the processing

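No member passed for diet, RNA amount or their interaction under any alternative run, and the smallest adjusted p of a member for diet was 0.141, for Cox7b with 14 separate arrays. The members' median diet difference of 0.06 became -0.0127 with arrays set to a common median, and -0.002 to 0.082 when 1 sample was left out, the lowest without deficient 4. Uqcrc2 turned from -0.19 to 0.0076 with 10 µg arrays alone. Of 505 values of named members under alternatives, the sign changed in 39. Values that kept their sign and side of the threshold counted as stable whatever their size. So did sign changes smaller than the SD of the deficient samples. By this rule 500 were stable, 4 changed sign by more and 1, the Uqcrc2 value above, reversed from a difference larger than its SE. The probe sets called for diet over the whole array, 90 in the main setting, were 33 with 2 µg arrays alone, 349 with 14 separate arrays and 250 with a random block, and 48 to 94 when 1 sample was left out (59 without sufficient 3, 48 without deficient 4). For RNA amount that count was 0, 2 with diet and number as a replicate block and 0 to 2 when 1 sample was left out. The number across diets does not pair samples (correlations -0.0763 to 0.0672), and with it as a replicate block 0 members and 78 probe sets passed for diet. The replicate block changed no call of a member.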
